A study of Mus musculus with 16 samples.

Results

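The 9 genes described here encode subunits of voltage-gated sodium channels, the membrane proteins that carry the inward current of the action potential. They were taken by gene symbol from the tables of all 16 libraries, in which they are 9 of 53379 gene IDs. Of these, 6 alpha genes encode the pore-forming subunit (Scn1a, Scn3a, Scn8a, Scn9a, Scn10a and Scn11a), and 3 beta genes encode accessory subunits (Scn2b, Scn3b and Scn4b). RNA came from dorsal root ganglia (DRG), the clusters of sensory neuron cell bodies beside the spinal cord, of untreated mice.

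The groups were female IP, male IP, female IN and male IN, with 4 libraries each. IP libraries hold RNA pulled down with tagged ribosomes (translating ribosome affinity purification, TRAP), and IN libraries hold rRNA-depleted total RNA of the whole ganglion. All mice were Nav1.8Cre/Rosa26fstrap littermates on a C57BL/6J background, aged 8 to 12 weeks, so every group carries both alleles and no group lacks them. Cre is driven by the Scn10a (Nav1.8) promoter and switches on an EGFP-L10a ribosomal protein in the neurons that use this promoter, mainly small-diameter pain-sensing neurons (nociceptors). Each replicate pooled the ganglia of 3 mice of 1 sex and gave 1 IP and 1 IN library, which makes 8 pools, named F1 to F4 and M1 to M4. The IP libraries thus differ from the IN libraries in the cells sampled and in the kind of RNA sampled, and these cannot be told apart because the labelled neurons' total RNA was not measured. In whole-ganglion RNA, fewer cells of a type and less RNA per cell cannot be told apart either.

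An alpha subunit folds into 4 homologous domains around a single sodium-selective pore. Beta subunits are single-pass membrane proteins with an immunoglobulin fold that set how fast alpha subunits open and inactivate and how many reach the surface. Sensory neurons are known for carrying sodium currents of both kinds of sensitivity to tetrodotoxin (TTX), a pore-blocking toxin: Nav1.8 (Scn10a) and Nav1.9 (Scn11a) are resistant, while Nav1.1 (Scn1a), Nav1.3 (Scn3a), Nav1.6 (Scn8a) and Nav1.7 (Scn9a) are sensitive. The codon that follows the selectivity-filter aspartate of the first domain is the main known determinant of this difference, and an aromatic residue there favours toxin binding.

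The 27 bases around that codon are shown for 5 alpha genes because they separate these into the groups used below. They were read from the GENCODE M21 transcript with the longest open reading frame of each gene (GRCm38), lie in exon 9 of each transcript, and are written 5′ to 3′ on the coding strand with the codon in capitals.
Scn10a, chr9:119666375-119666401, minus strand: atgacgcaggacTCCtgggaacggctg
Scn11a, chr9:119805668-119805694, minus strand: atgactcaagacTCCtgggagaagctt
Scn9a, chr2:66548989-66549015, minus strand: atgactcaggacTACtgggagaacctt
Scn8a, chr15:100971626-100971652, plus strand: atgactcaggacTACtgggagaactta
Scn3a, chr2:65521801-65521827, minus strand: atgactcaagacTACtgggagaacctt
Scn10a and Scn11a have the serine codon TCC and Scn8a, Scn9a and Scn3a have the tyrosine codon TAC. Over the whole stretch the Scn3a and Scn9a sequences differ at 1 of 27 bases, and the Scn10a and Scn11a sequences at 6 of 27. Longer identity is limited: of all 50-base words in the transcripts of a gene, 6.49% in Scn3a, 4.04% in Scn9a, 4.03% in Scn1a and 1.66% in Scn10a also occur in another sodium channel gene. The share was 0.0374% in Scn8a and 0 in Scn11a, Scn2b, Scn3b and Scn4b, so reads could be split between paralogs mainly for the Scn1a, Scn3a and Scn9a values.

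The alpha genes lie in 2 clusters and at 1 separate place in GRCm38. Scn10a (ENSMUSG00000034533.10, chr9:119608456-119719322) and Scn11a (ENSMUSG00000034115.10, chr9:119753759-119825456) are neighbours on the minus strand of chromosome 9. Scn3a (ENSMUSG00000057182.14, chr2:65457118-65567627), Scn1a (ENSMUSG00000064329.13, chr2:66270778-66440840) and Scn9a (ENSMUSG00000075316.11, chr2:66480080-66634962) are on the minus strand of chromosome 2, and Scn8a (ENSMUSG00000023033.14, chr15:100869858-101045938) is on the plus strand of chromosome 15. All 3 beta genes are on the plus strand of chromosome 9: Scn3b (ENSMUSG00000049281.16, chr9:40269217-40291618), Scn2b (ENSMUSG00000070304.12, chr9:45117782-45130070) and Scn4b (ENSMUSG00000046480.6, chr9:45138395-45154152). Scn9a overlaps the antisense gene Gm13629, which had 0.408 to 0.759 deposited TPM in IP and 0.861 to 1.71 in IN. It also overlaps the antisense gene Gm23046 (at most 0.0441) and, on its own strand, Gm13627. Gm13627 had 0 to 0.4544 deposited TPM in IP and 0.0788 to 0.2665 in IN. Scn1a, Scn3a, Scn2b and Scn3b each overlap a further gene on the other strand, and the strand setting of the counting is not stated in the labels or notes.

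Levels are TPM, a unit corrected for transcript length and library total, so that members can be compared with one another within a library. They were scaled between libraries by the median ratio over those of the 16099 tested genes that were detected in every library. Read depth is unknown. The IP library of pool F2 stood apart from the others, with 44.9% of its TPM in nuclear protein-coding genes, against 57.6% to 79.5% in the other IP libraries. In IP libraries, the order by median scaled TPM was Scn10a (388), Scn11a (307), Scn9a (114), Scn4b (69.5), Scn8a (21.7), Scn3b (20.1), Scn2b (14.2), Scn1a (10.2) and Scn3a (2.38). In IN libraries it was Scn10a (122), Scn11a (83.1), Scn4b (80.1), Scn9a (62.5), Scn8a (33.5), Scn1a (27.2), Scn2b (9.49), Scn3b (9.02) and Scn3a (2.44). Scn10a led Scn11a, and Scn3a was last, in 8 of 8 libraries of both fractions. Neighbours lower in the order were less separated: in IP, Scn8a exceeded Scn3b in 5 of 8 libraries and Scn2b exceeded Scn1a in 6 of 8, and in IN, Scn11a exceeded Scn4b in 6 of 8 and Scn2b exceeded Scn3b in 5 of 8. Scn4b and Scn9a changed places between the fractions, with Scn9a above Scn4b in 7 of 8 IP libraries and Scn4b above Scn9a in 7 of 8 IN libraries.

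**Figure D1:**
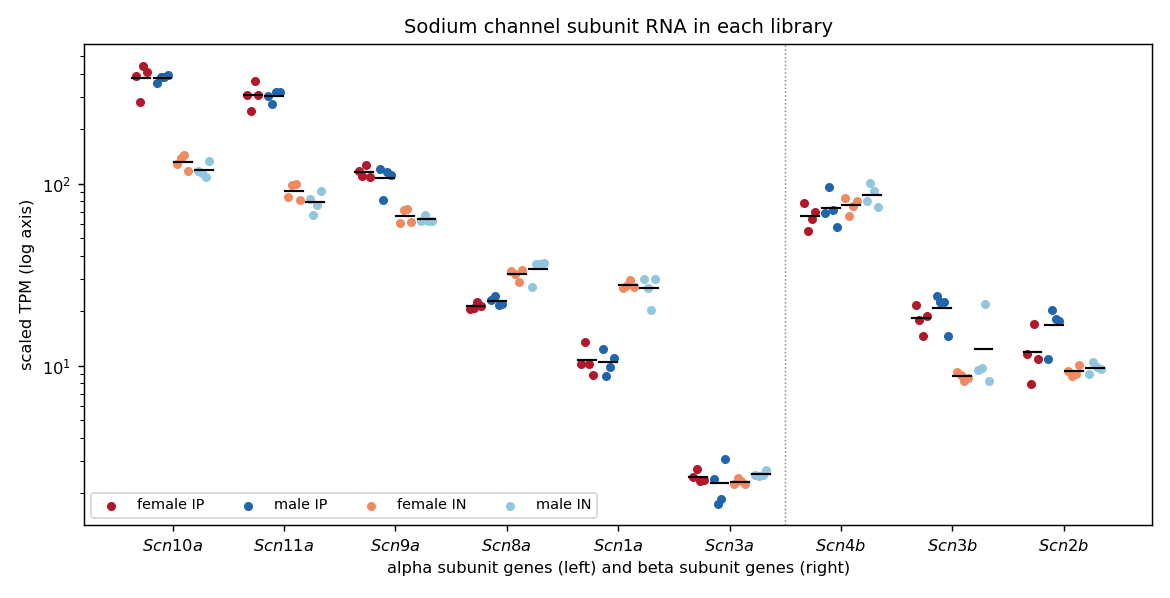
Scaled TPM (log axis) of the 9 sodium channel subunit genes in each of 16 libraries, with 1 point per library, colours for sex and fraction and a bar at the mean of each group of 4. The IP points of Scn10a, Scn11a and Scn9a sit above all their IN points, those of Scn8a and Scn1a sit below, and the IN point of Scn3b from pool M3 (21.9) stands with the IP points.

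IP was compared with IN to ask which subunit RNAs are more abundant on the ribosomes of Nav1.8 neurons than in the whole ganglion. All 9 genes passed the filter of a mean deposited TPM of at least 1, in each fraction. Of the 9 genes, 5 were higher in IP (Scn11a, Scn10a, Scn3b, Scn9a and Scn2b), 3 were lower (Scn4b, Scn8a and Scn1a) and Scn3a was not called at an adjusted p of 0.05 (limma with the pool as a block, two-sided, Benjamini-Hochberg over all tested genes). Among all 16099 tested genes 79.4% were called, 40.5% higher and 38.9% lower, so a call as such is common and the size and order of the changes carry the description. How many of all tested genes lack overlap between the fractions, or change the same way in every pool, was not counted. Those traits only describe a member below and do not set it apart from other genes. The median log2 change was 0.48 over the 9 genes and 0.02 over all tested genes. These directions hold for median-of-ratios scaling. In deposited TPM without scaling all 9 genes were higher in IP, but the median of all genes was then also higher by 1.84, and scaling on pan-neuronal genes left Scn10a and Scn11a as the 2 genes called higher.

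The RNAs of both TTX-resistant channels were the members most enriched in IP. Scn10a, whose channel Nav1.8 carries most of the action potential upstroke in nociceptors, had 282, 388 and 444 scaled TPM in IP (lowest, median and highest of 8) and 108, 122 and 143 in IN. The groups did not overlap, and the lowest IP value was that of pool F2. The ratio of the means was 3.05, and the log2 change was 1.60 ± 0.08 (SE, 95% interval 1.41 to 1.78, adjusted p = 7.0e-08, limma), higher in 8 of 8 pools. Because the Scn10a promoter chose the labelled cells, this value checks the labels and is not a finding about Scn10a.

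Scn11a encodes Nav1.9, which carries a persistent current near the resting potential. It had 249, 307 and 366 scaled TPM in IP and 67.6, 83.1 and 99.8 in IN, again with no overlap and with the lowest IP value in F2. Its ratio of means was 3.59 and its log2 change 1.84 ± 0.07 (1.67 to 2.0, adjusted p = 4.4e-08, limma), higher in 8 of 8 pools. Ranked from the highest of the 16099 log2 changes, Scn11a stood at 19 and Scn10a at 46. The Scn11a to Scn10a ratio within a library, which no scaling by a library-wide factor changes, was 0.712 to 0.882 in IP and 0.590 to 0.713 in IN, and was higher in the IP than in the IN library of all 8 pools.

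Pool F2 showed the smallest IP against IN change of both genes, 1.03 for Scn10a and 1.33 for Scn11a, against 1.56 to 1.82 and 1.79 to 2.06 in the other pools. Its IP library, which had the lowest protein-coding share, also had the highest summed Schwann cell marker level of the IP libraries (1012 scaled TPM). The part of these in the result was not tested. Without F2 the log2 changes were 1.68 for Scn10a and 1.90 for Scn11a.

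Among TTX-sensitive channels, Scn9a was the one whose RNA was higher in IP. It encodes Nav1.7, which amplifies small depolarizations in nociceptors and whose loss in humans abolishes pain. Scn9a had 81.3, 114 and 127 scaled TPM in IP and 60.7, 62.5 and 72.6 in IN, and the groups did not overlap. The ratio of means was 1.71 and the log2 change 0.76 ± 0.07 (0.59 to 0.92, adjusted p = 4.6e-06, limma), higher in 8 of 8 pools, although pool M2 changed by only 0.26. When libraries were scaled on pan-neuronal genes the change was 0.03 with an adjusted p of 0.74 in limma.

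Scn8a and Scn1a, whose channels are also TTX-sensitive, were lower in IP. Scn8a encodes Nav1.6, the channel of the nodes of Ranvier, and had 20.5, 21.7 and 24.2 scaled TPM in IP and 27.0, 33.5 and 36.6 in IN. Scn1a encodes Nav1.1, known in the DRG mainly from larger myelinated neurons, and had 8.71, 10.2 and 13.5 scaled TPM in IP and 20.2, 27.2 and 29.9 in IN. Neither gene's groups overlapped, and both were lower in 8 of 8 pools.

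The mean IN level exceeded the mean IP level 1.50 times for Scn8a and 2.57 times for Scn1a. Scn8a fell by 0.56 ± 0.06 on the log2 scale (95% interval of the change -0.70 to -0.43, adjusted p = 1.0e-05, limma), and in deposited TPM without scaling its change was 1.64, below the all-gene median of 1.84. Scn1a fell by 1.29 ± 0.07 (-1.45 to -1.13, adjusted p = 1.0e-07, limma), and its change in deposited TPM was 0.87. Within a library the Scn1a to Scn10a ratio was 0.0217 to 0.0480 in IP and 0.187 to 0.256 in IN. The Scn10a promoter chose the labelled cells, which lowers this ratio in IP, so it is not read as a result about Scn1a.

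Scn3a encodes Nav1.3, abundant in the embryo and known to return in rat sensory neurons after nerve injury. It was the least abundant member, with 1.74, 2.38 and 3.06 scaled TPM in IP and 2.22, 2.44 and 2.65 in IN. The groups overlapped, 4 pools were higher in IP and 4 lower, and the log2 change of -0.04 ± 0.07 was not called (95% interval -0.18 to 0.11, adjusted p = 0.64, limma). Its sign and call depended on the scaling: the change was 0.42 (adjusted p = 0.000224, limma) after quantile normalization, and -0.20 and -0.55 when libraries were scaled to the protein-coding total or on pan-neuronal genes.

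**Figure D2:**
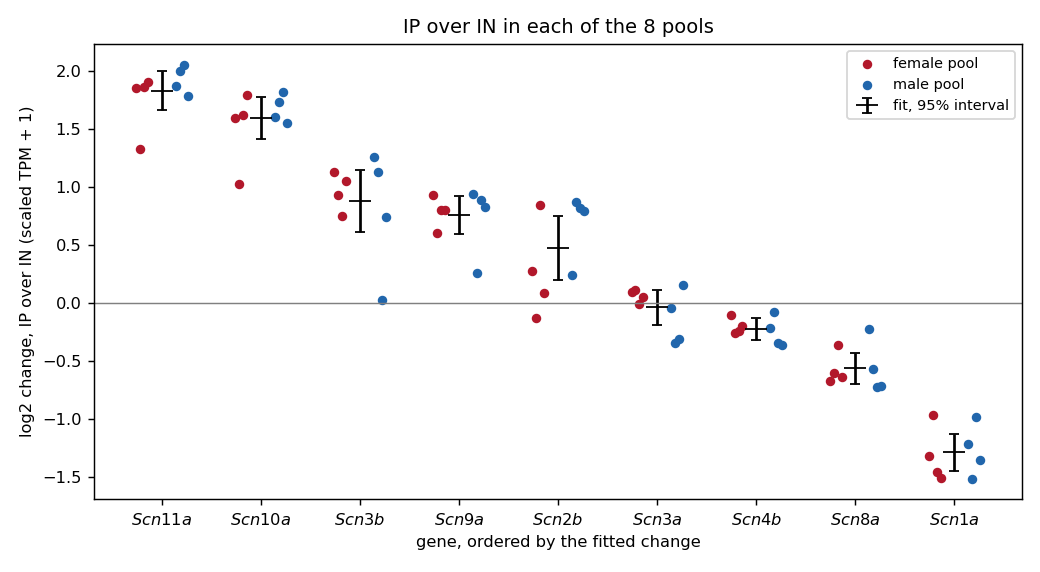
Change in log2(scaled TPM + 1), IP over IN, in each of the 8 pools (1 point per pool, coloured by sex) with the fitted change and its 95% interval, genes ordered by the fitted change. All 8 pools lie above 0 for Scn11a, Scn10a, Scn3b and Scn9a and below 0 for Scn4b, Scn8a and Scn1a under this scaling, and F2 is the lowest pool of Scn11a (1.33) and Scn10a (1.03).

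The beta genes did not move together. Scn3b, whose product beta3 binds alpha subunits without a covalent bond, had 14.5, 20.1 and 24.1 scaled TPM in IP and 8.22, 9.02 and 21.9 in IN. The groups overlapped through the IN library of pool M3 at 21.9, since the other 7 IN libraries were at 9.65 or below. The ratio of means was 1.85 and the log2 change 0.88 ± 0.12 (0.61 to 1.15, adjusted p = 6.0e-05, limma), higher in 8 of 8 pools with 0.02 in M3, and 1.01 when M3 was left out. Scaled on pan-neuronal genes it was 0.19 and not called (adjusted p = 0.19, limma).

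Scn2b encodes beta2, which is linked to alpha subunits by a disulfide bond. It had 7.97, 14.2 and 20.1 scaled TPM in IP and 8.77, 9.49 and 10.5 in IN, so the IP libraries were spread far more widely than the IN libraries and the groups overlapped. The ratio of means was 1.50 and the log2 change 0.48 ± 0.12 (0.20 to 0.75, adjusted p = 0.0045, limma), higher in 7 of 8 pools and -0.12 in F2. The call was lost when libraries were scaled to the protein-coding total (0.26, adjusted p = 0.060) and the sign turned when they were scaled on pan-neuronal genes (-0.20, adjusted p = 0.12, both limma).

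Scn4b encodes beta4, also disulfide-linked, whose cytoplasmic end can block the open pore and give resurgent current. It had 54.9, 69.5 and 96.3 scaled TPM in IP and 66.0, 80.1 and 101 in IN. The groups overlapped widely, but within every pool the IP library was lower. Without scaling, in deposited TPM, Scn4b was higher by 2.03, where the all-gene median was 1.84. That median is held down by low genes, whose changes the added 1 understates. It therefore does not place Scn4b above the typical gene. With scaling Scn4b fell by 0.22 ± 0.04 on the log2 scale (-0.32 to -0.13, adjusted p = 0.00076, limma), a mean IN level 1.16 times the mean IP level. This call rests on the pairing by pool: without the pool as a block the adjusted p was 0.054 (limma).

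Shares within the family compare members inside a library and do not depend on scaling between libraries, so they are given as a description with no test. Of the summed TPM of the 6 alpha genes, Scn10a held 41.6% to 49.7% in IP and 35.5% to 38.2% in IN. Scn11a held 35.4% to 37.7% in IP and 21.5% to 26.6% in IN. Together the 2 TTX-resistant genes held 78.4% to 85.0% of this 6-gene sum in IP, with the lowest value in F2, and 57.8% to 64.5% in IN.

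All 4 TTX-sensitive genes held smaller shares in every IP library than in any IN library. Shares of 1 sum cannot all rise. Scn10a, whose promoter chose the labelled cells, and Scn11a both held larger shares in IP, which leaves less for the TTX-sensitive genes. By themselves the smaller shares are therefore not read as a result about these genes. Scn9a held 10.5% to 16.2% in IP and 17.6% to 21.4% in IN, so its share was smaller in IP although its scaled level was higher. Scn8a held 2.30% to 3.12% in IP and 7.67% to 11.9% in IN. Scn1a held 1.04% to 2.0% in IP and 6.62% to 9.32% in IN. The smallest share belonged to Scn3a, at 0.216% to 0.398% in IP and 0.620% to 0.824% in IN.

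Of the summed TPM of the 3 beta genes, Scn4b held most in every library, 64.0% to 70.3% in IP and 74.1% to 83.4% in IN. Scn3b held 15.3% to 23.2% in IP and 7.94% to 17.8% in IN, where the highest IN share is that of M3. Scn2b held 9.87% to 19.6% in IP and 8.01% to 10.5% in IN. The Scn4b shares of the fractions did not overlap, while those of Scn3b and Scn2b did. The sum of the 3 beta genes was 0.0982 to 0.179 of the alpha sum in IP and 0.226 to 0.401 of it in IN. The alpha sum was 678 to 972 scaled TPM in IP and 306 to 376 in IN, while the beta sum overlapped between the fractions, at 80.7 to 139 in IP and 83.6 to 123 in IN.

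**Figure D3:**
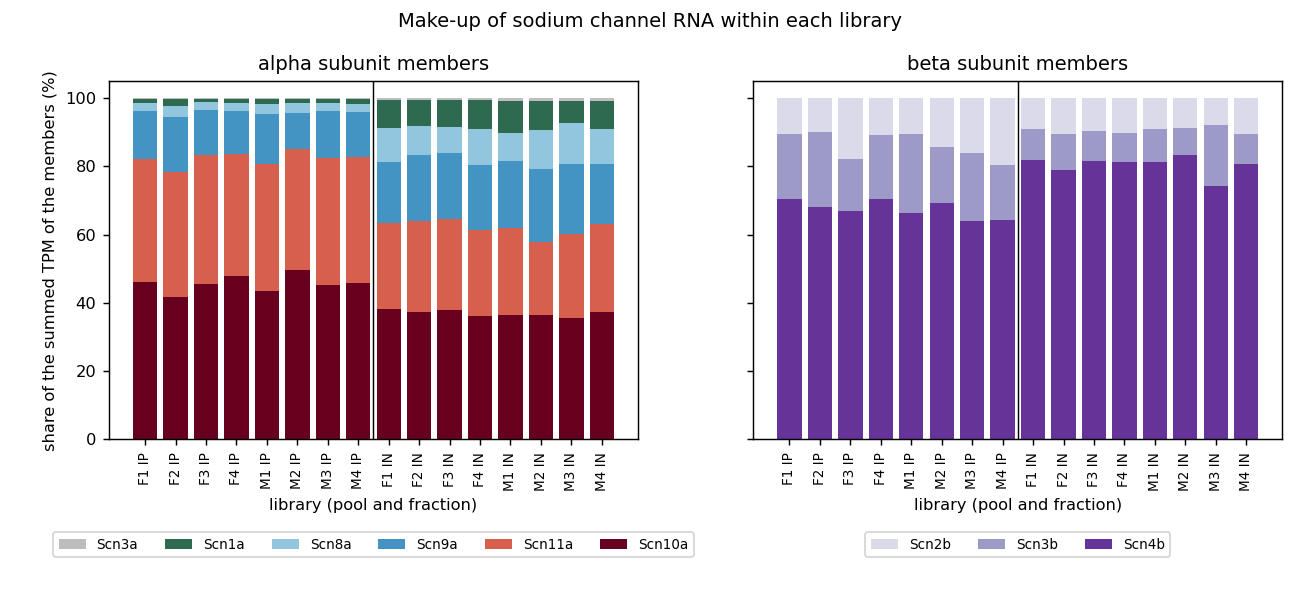
Share (%) of each member in the summed TPM of the 6 alpha genes (left) and of the 3 beta genes (right), 1 stacked bar per library, IP libraries left of the line and IN libraries right of it. Scn10a and Scn11a together take 78.4% to 85.0% of the sum of the 6 alpha genes in IP and 57.8% to 64.5% in IN. Scn4b takes most of the sum of the 3 beta genes in every library. The Scn10a promoter chose the labelled cells, and larger Scn10a and Scn11a shares leave less for the TTX-sensitive alpha genes.

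**Figure D4:**
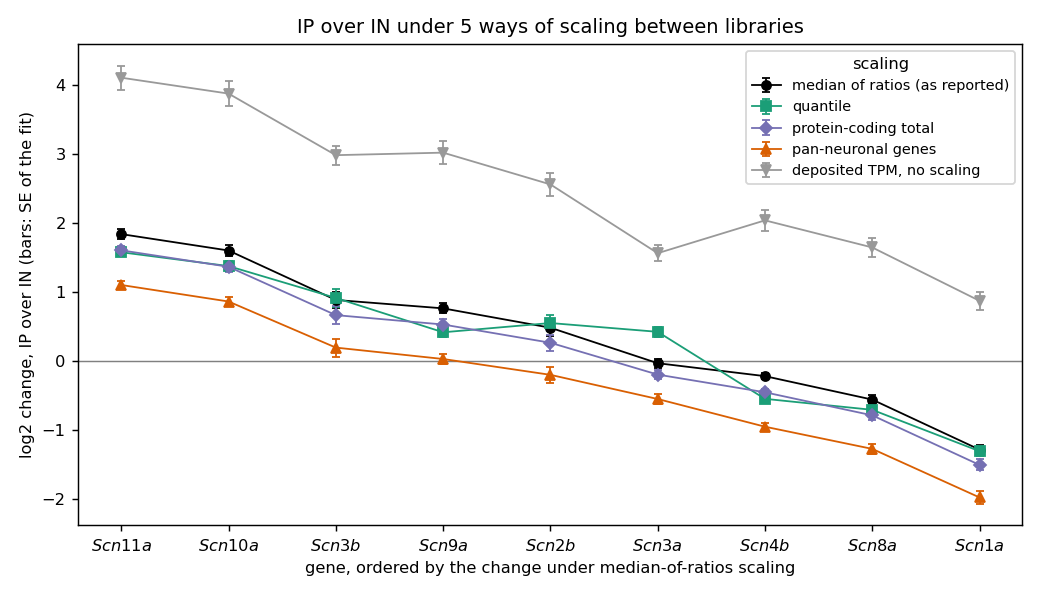
Log2 change, IP over IN, of each member over all 8 pools under 5 ways of making libraries comparable, with the SE of the fit as bars. Scn11a and Scn10a are above 0 under all 5, Scn1a, Scn8a and Scn4b are below 0 under all but deposited TPM, and Scn9a, Scn3b and Scn2b come near or under 0 when libraries are scaled on pan-neuronal genes.

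The IP against IN changes were also fitted in each sex. In female pools 4 members were higher, 3 lower and 2 not called, where 69.2% of all tested genes were called (34.5% higher, 34.7% lower), and in male pools 5 were higher, 3 lower and 1 not called, where 71.9% were called (36.2% higher, 35.7% lower). The count differed by Scn2b, with a log2 change of 0.27 ± 0.16 in female pools (95% interval -0.08 to 0.62, adjusted p = 0.15) and 0.69 ± 0.16 in male pools (0.33 to 1.04, adjusted p = 0.0032, limma). The difference itself, female minus male, was -0.41 ± 0.22 (-0.91 to 0.08) and did not pass (adjusted p = 0.999986, limma). The female value rested on single pools, at 0.08 without F3 and 0.40 without F2, and after quantile normalization Scn2b was called in female pools as well (0.37, adjusted p = 0.039, limma).

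Scn2b in IP was 11.5, 7.97, 16.9 and 10.8 scaled TPM in F1 to F4 and 10.9, 20.1, 18.1 and 17.5 in M1 to M4. Male libraries other than M1 were higher than every female one, and M1 lay among the female libraries. Female IP libraries had 11.8 ± 3.75 and male IP libraries 16.6 ± 4.01 (SD, n = 4 each), a log2 difference of -0.47 ± 0.23 (-1.01 to 0.06, adjusted p = 1, limma).

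For the other members the sex difference in the IP against IN change lay between -0.19 (Scn11a, 95% interval -0.51 to 0.13) and 0.20 (Scn3a, -0.09 to 0.48). These values moved with single pools: without F2 they were -0.05 for Scn11a and -0.01 for Scn10a (-0.17 with all pools), Scn3a ranged from 0.13 without M2 to 0.29 without M4, and Scn3b (0.18 with all pools) turned to -0.08 without M3. The log2 change of Scn10a was 1.51 among females and 1.68 among males, that of Scn11a 1.74 among females and 1.93 among males, and that of Scn1a -1.31 among females and -1.26 among males. In female pools the Scn4b call (log2 change -0.20, adjusted p = 0.021) was lost without F2, F3 or F4 in turn (adjusted p 0.057, 0.078 and 0.053, limma). In male pools Scn3a (log2 change -0.13, adjusted p = 0.20) ranged from -0.07 without M2 and -0.08 without M3, not called, to -0.23 without M4, where it passed (adjusted p = 0.043, limma).

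None of the 9 genes passed for the interaction of sex and fraction, for which 0.0186% of tested genes were called, or for female against male in IP (0.0497% called) or in IN (0.0808% called). By limma, 0 of 9 members also had an unadjusted p under 0.05 in any of the 3 comparisons, where 448, 362 and 776 of all tested genes did. In IN the largest difference was that of Scn3b, at 9.20, 8.85, 8.27 and 8.56 scaled TPM in F1 to F4 and 9.47, 9.65, 21.9 and 8.22 in M1 to M4. The M3 value stood above all the others, which lay between 8.22 and 9.65, and the log2 difference was -0.35 ± 0.25 (-0.93 to 0.23, adjusted p = 0.96, limma), and -0.06 without M3. Scn3a was the member whose sexes did not overlap in IN, at 2.22 to 2.41 scaled TPM in females and 2.48 to 2.65 in males, a log2 difference of -0.10 (-0.22 to 0.02, adjusted p = 0.96, limma).

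Sodium channel genes outside the 9 differed in direction between the fractions. Scn7a, which encodes the sodium-sensing channel Nax, had medians of 85.8 scaled TPM in IP and 116 in IN and fell by 0.46 ± 0.05 on the log2 scale (adjusted p = 8.3e-06, limma). Scn2a (Nav1.2) fell by 0.31, with medians of 5.54 scaled TPM in IP and 7.20 in IN. Scn4a (Nav1.4, the skeletal muscle channel) had medians of 2.21 in IP and 1.43 in IN, and because its mean deposited TPM was under 1 in IN it was tested only through its IP level, so its change is not read as a result. Nalcn, a sodium leak channel, was higher by 0.36. The shares above are shares of the 6 alpha or 3 beta genes named there and not of every alpha or beta subunit. Scn7a and Scn2a, for instance, are not in the alpha sum.

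Proteins that bind, anchor, deliver or cut sodium channel subunits differed gene by gene. Their changes, and those of the sodium channel genes outside the members, are given under median-of-ratios scaling only. Scaled on pan-neuronal genes, the median change of all tested genes was -0.58. The sign of small rises, such as those of Ank2, Fgf12, Bace1 and Nalcn, may thus depend on the scaling. Of all tested genes 40.5% were called higher and 38.9% lower. Fibroblast growth factor homologous factors bind the cytoplasmic tail of alpha subunits, and of 4 listed 3 were tested, 2 higher and 1 lower (median 0.27). Fgf13 had medians of 202 scaled TPM in IP and 111 in IN and was higher by 0.90 ± 0.07 (adjusted p = 1.2e-06, limma), Fgf12 was higher by 0.27 and Fgf11 fell by 0.68. Of 9 genes of channel anchoring at the axon initial segment and node, 2 were higher, 4 lower and 3 not called (median -0.12): Ank2 was higher by 0.36 and the nodal adhesion molecule gene Nfasc fell by 0.87, while Ank3 (ankyrin-G) had 0.14 with an adjusted p of 0.066 (limma).

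Of 11 trafficking and regulation genes, 9 were higher, 1 lower and 1 not called (median 0.32). The shares over all tested genes were 40.5% higher and 38.9% lower. In the fits by sex, 6 of the 11 were higher in female pools and 7 in male pools. S100a10 (p11), which is known to carry Nav1.8 to the membrane, was higher by 1.17, Tmem233, whose protein is reported to interact with Nav1.7, by 1.45, and the ubiquitin ligase gene Nedd4l by 0.94. The PDZ-domain gene Pdzd2 fell by 1.70. Of 5 genes of the proteases that cut beta subunits, 4 were higher and 1 lower (median 0.31), with the gamma-secretase genes Psen2 and Ncstn both higher by 0.77, Bace1 higher by 0.31, and Adam10 lower, at -1.36. Bace1 overlapped between the fractions and was lower in IP in pools M1 (-0.35) and M4 (-0.23). In male pools 3 of the 5 genes were higher, 1 lower and 1 not called.

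Cell type markers moved between the fractions as well, and their part in the changes of the sodium channel genes was not tested. For these and the markers of other cells below, the shares over all tested genes were 40.5% higher and 38.9% lower. All 18 nociceptor markers were higher in IP (median log2 change 1.46, summed level 3494 to 5026 scaled TPM in IP and 1442 to 1664 in IN), beside which Scn10a and Scn11a stood at 1.60 and 1.84. Of 12 markers of large-diameter neurons 11 were lower and 1 was not called (median -1.37, summed level 398 to 558 in IP and 848 to 1014 in IN), beside which Scn1a stood at -1.29 and Scn8a at -0.56. Runx3, counted among the lower ones, had a mean deposited TPM under the filter in IP. It was tested only through its IN level, so its change is not read as a result. Of 16 pan-neuronal genes 12 were higher, 2 lower and 2 not called (median 0.89).

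Markers of other cells were lower in IP but present in every library. All 8 Schwann cell markers were lower (median -2.49, summed level 391 to 1012 scaled TPM in IP and 2377 to 3532 in IN), as were all 5 tested macrophage markers (median -2.25, 6.36 to 24.4 in IP and 69.6 to 116 in IN), all 6 endothelial and mural markers (median -1.57, 31.3 to 43.3 in IP and 71.2 to 81.8 in IN) and all 5 fibroblast markers (median -2.68, 58.4 to 189 in IP and 658 to 910 in IN). The endothelial marker Kdr passed the filter only through its IN level, so its change is not read as a result. Of 8 satellite glia markers 7 were lower and Cadm1 was higher (median -2.82, 261 to 418 in IP and 968 to 1302 in IN). No listed marker was at 0 in any library.

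The genes whose pattern was most like a member were ranked by Pearson's r over the 16 libraries among 5778 tested genes with a mean of at least 10 scaled TPM. The libraries fall into the IP and IN fractions, which share pools and scaling, so r within the 8 IP and the 8 IN libraries is given beside it and no p is given. Scn11a was followed most closely by Tmem45b (r = 0.998, 0.943 within IP and 0.968 within IN), Dgkz (0.998, 0.965 and 0.922) and L1cam (0.997, 0.920 and 0.923). Scn10a was followed by Tmem63c (0.996, 0.893 and 0.870), Tmem45b (0.995, 0.932 and 0.832) and Fam89a (0.994, 0.966 and 0.604). Tmem45b was thus among the nearest genes of both TTX-resistant channels.

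Scn4b, which overlapped between the fractions, was tracked within both of them by Nat8l (r = 0.986 over all, 0.980 within IP and 0.988 within IN), Rab11fip4 (0.952, 0.967 and 0.913) and Vti1a (0.943, 0.934 and 0.972). The nearest gene of Scn9a was Tm7sf2 (0.978, 0.973 and 0.773) and that of Scn1a was Zdhhc20 (0.986, 0.904 and 0.603). For Scn8a it was Gmfb (0.964, 0.741 and 0.740). Over all libraries r was lower for Scn2b (Anapc16, 0.903, with 0.920 within IP and 0.130 within IN), Scn3b (Washc3, 0.892, 0.761 and 0.806) and Scn3a (Ncoa1, 0.803, 0.851 and 0.534). Within IP, however, r was higher for each of these than the 0.741 of Scn8a.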

How the data were processed

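RNA-seq of 16 libraries was used. The column the authors deposited was taken to be TPM, since it adds up to 1000000 in every library, although the header line ends in Coverage. The submitters' processing notes name FastQC, STAR (2.2.1), StringTie (1.3.5) and GRCm38.p5, with no annotation release or strand setting. TPM hold no read numbers. Depth per library is therefore unknown, and intervals that rest on it are not given. Nuclear protein-coding genes made up 44.9% to 79.5% of TPM in IP and 9.58% to 13.3% in IN, so unscaled TPM of the fractions are not on 1 scale. No library pair was identical (0 pairs), and 0 columns belonged to other samples.

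Entries of 1 gene ID were summed, giving 53379 IDs, and 92 ERCC spike-in entries were left out. Gene types and coordinates were checked against GENCODE M21. Genes with a mean deposited TPM of at least 1 in either fraction were tested. TPM were scaled by the median of ratios (factors 1.65 to 2.69 for IP and 0.375 to 0.532 for IN), and log2 was taken after adding 1, which understates changes of low genes. limma 3.58.1 (R 4.3.3; lmFit, eBayes with trend) gave moderated two-sided tests, adjusted by Benjamini-Hochberg over all tested genes and called at 0.05. IP against IN, its values within each sex and the interaction used all libraries with the pool as a block, and female against male used the 8 IP or 8 IN libraries with no block. The fit was tested on simulated data. Tables and figures were made in Python 3.11.15 (pandas 2.3.3, numpy 2.4.6, matplotlib 3.10.9).

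The series design text pairs the IP and IN library of a pool. Their deviations from the group mean correlated across genes with r = 0.0136, 0.116, 0.198 and 0.414 in F1 to F4 and 0.00665, 0.276, 0.208 and 0.323 in M1 to M4. The highest r with another IP library of the same sex was 0.0191, 0.115, 0.111 and 0.0655 for F1 to F4 and 0.201, 0.0465, 0.0429 and 0.00655 for M1 to M4, so F1 and M1 were not closest to their own pair and F2 was about equal. Genes are named if they are members, belong to a list of other sodium channel genes, partners or cell type markers, or are among the 3 most alike genes of a member. Some results of the list of other sodium channel genes, and a sequence, are not reported here. Members and lists were chosen with earlier results of these data known. Alternatives covered the pseudocount, the filter, 4 other scalings, the trend, the block and leaving out each pool.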

Additional observations from a re-analysis of the deposited data

Results flagged for a closer look

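In 36 groups of 4 libraries (9 genes, 2 sexes, 2 fractions), 3 libraries lay far from the rest of their group by Dixon's criterion. Chance gives about 1 in 20 groups, so some flags among 36 groups come by chance. All 3 are male IN libraries, each from another pool. Scn3b was at 21.9 scaled TPM in pool M3, against 8.22 to 9.65 in the other male IN libraries, and without M3 the male log2 change of Scn3b between IP and IN was 1.05 in place of 0.79. Scn8a was at 27.0 in M1, against 36.2 to 36.6 in the others, and without M1 its male log2 change was -0.67 in place of -0.56. Scn9a was at 67.5 in M2, against 62.4 to 62.6 in the others but within the 60.7 to 72.6 of the female IN libraries. Without M2 its male log2 change was 0.89 in place of 0.73. The IP library of M2, left out with it, was also apart, at 81.3 against 112 to 121 in the other male IP libraries.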

How the results depend on the processing

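The directions of Scn11a and Scn10a in IP against IN held under the 9 other settings and when each pool was left out. In deposited TPM without scaling, 9 members were called higher and 0 lower over all pools and in each sex, and values turned for Scn1a (0.87 over all, 0.73 in female and 1.01 in male pools), Scn8a (1.64, 1.51 and 1.77), Scn4b (2.03, 1.93 and 2.14) and Scn3a (1.56 over all and 1.55 in male pools), where the median of all genes was 1.84. Low genes, whose changes the added 1 understates, hold that median down. Quantile normalization turned Scn3a (0.42 over all, 0.33 in male pools). Scaling on pan-neuronal genes (median of all genes -0.58) left 2 members called higher in each of the 3 fits and 5 lower in female pools, and turned Scn2b (-0.20 over all, -0.40 in female and -0.00274 in male pools), Scn3a in female pools (-0.46) and Scn9a in male pools (-0.00405). The share of higher among all called genes was 51.0%, and 94.0% in deposited TPM, 61.1% with quantile normalization, 35.1% on the protein-coding total, 8.09% on pan-neuronal genes, 32.8% with no filter and 60.1% at a mean TPM of at least 5.

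With no filter on low values 21019 genes were called over all pools, 17207 in female and 17927 in male pools, in place of 12783, 11141 and 11574, since more genes were tested. The interaction gave 3 genes, and 0 with no filter, 11 in deposited TPM, 1 with quantile normalization and 5 on pan-neuronal genes. Female against male gave 8 genes in IP and 13 in IN, 5 in IP on pan-neuronal genes, 8 in IN at a mean TPM of at least 5, and 5 and 8 with the replicate number as a block, which no label pairs between the sexes. The cause was not tested. With no replicate block for IP against IN the counts stayed within 1.5 times and the Scn4b call was lost (adjusted p 0.054 over all, 0.25 in female and 0.15 in male pools, limma).

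Leaving out each pool in turn gave 12404 to 12793 calls over all pools (5 members higher and 3 lower each time), 9960 to 11144 in female pools (4 higher, 2 to 3 lower), 10503 to 11655 in male pools (5 higher, 3 to 4 lower), 0 to 6 for the interaction, 5 to 12 for female against male in IP and 10 to 13 in IN, with 0 members in these 3. Depth is unknown, so low members such as Scn3a carry an unmeasured counting error.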
